A study of Sus scrofa with 12 samples.

Results

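The predicted miRNAs of pig liver (Sus scrofa) were taken as every entry of the deposited miRNA table whose class column marks it as a predicted miRNA, 1 entry excepted, which gave 91 of 774 entries. Their names are given without the class name that the table puts before the number, as m0001-3p. Of the other entries, 303 have porcine names (prefix ssc) and 379 have names from other species, with x, y or z where an arm would stand. The 91 names stand for 77 distinct sequences and 76 distinct sets of counts. Small RNA had been sequenced from liver in 12 libraries: Bama pigs at 23 ± 2 °C, Bama pigs under cold at -15 ± 2 °C, Hezuo pigs at 23 ± 2 °C and Hezuo pigs under cold at -15 ± 2 °C, 3 libraries each, all labelled day 15. The normal-temperature group of each breed is the control for its cold group, and the study set out to find RNAs tied to the cold resistance of Hezuo pigs. The sources used here give no sex, age, litter or sequencing batch, and anything else that may differ between the pigs of each breed cannot be told apart from breed. The same pig numbers, 1 to 3, occur at both temperatures, and the labels do not say whether they name the same animals. The libraries were treated as 12 animals. If a number names the same pig at both temperatures, the cold tests ignore that pairing and the breed comparisons at the 2 temperatures share animals.

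A miRNA is cut from the stem of a hairpin transcript, first by Drosha and then by Dicer, which leaves a short duplex. One strand, from the 5p or the 3p arm, is loaded into an Argonaute protein and guides it to messenger RNAs, mostly by pairing through the seed, bases 2 to 8. Prediction programs propose miRNAs from reads that pile up on genomic stretches able to fold into such a hairpin. A predicted entry can therefore be an unnamed miRNA, a length form of a named miRNA, or a fragment of another RNA, and the names used here give an arm but no function. Hepatocytes, the main cells of the liver, carry very large amounts of miR-122.

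The mature sequences of the predicted miRNAs on which the breed and cold comparisons turn are shown 5′ to 3′ as deposited, in DNA letters, with the seed in capitals.
m0017-3p: tTCCCATTgagactgagcatct
m0018-3p: tGTGACTGtggtgtacactagc
m0043-5p: tCCTAGAGctggagagactttgt
m0050-3p: tCGACTCTccctctgcctccag
m0008-5p: tCAGCTTCgggcctagatcctgg
m0009-5p: aGGGTGCTatctgtgactgag
m0013-3p: cCTGGTGAtgaccaatgacattg
m0020-5p: gTCCAGGAtgaaaccttatctgagt
m0005-5p: tTTACGTCctttcacctagtt
m0007-5p: tCCCTGGTctagtggttaggatt
m0011-3p: cTCTGGCTtagtctgcaactaca
None of these seeds was that of an entry with a porcine or other-species name. The seed of m0018-3p was also that of m0092-3p, the only pair of distinct predicted sequences with a common seed, so the 77 sequences had 76 seeds.

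A second set shows the predicted miRNAs whose letters overlap those of a named entry in the same table, each above its named counterpart, with the shared stretch in capitals.
m0001-3p: ATGCGGAACCTGCGGATACGGa
ssc-miR-7134-3p: ATGCGGAACCTGCGGATACGG
m0004-3p: AAGGAGGATCTTTGTCACTcag
miR-802-y: AAGGAGGATCTTTGTCACTa
m0003-3p: cccCCCACTGCTAAATTTGACtg
miR-735-y: CCCACTGCTAAATTTGAC
m0014-3p: ACAGGGTAGAACCACGGACagg
miR-140-y: accACAGGGTAGAACCACGGACgt
m0016-5p: TGCGTGGCTTCTCTGTGCAgtc
ssc-miR-10384: cccTGCGTGGCTTCTCTGTGCA
m0029-3p: GATGAAGCACTGTAGCTCggga
ssc-miR-143-3p: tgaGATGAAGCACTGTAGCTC
m0076-5p: GGGGAACTCCCAGACCAGCttc
ssc-miR-7137-5p: cgGGGGAACTCCCAGACCAGC
m0081-5p: TGAGGTAGTAGGTTGTATAGTTtta
ssc-let-7a: TGAGGTAGTAGGTTGTATAGTT

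The third set holds the 6 predicted and 2 named entries that contain the letters TGTGGNGTA, here in capitals.
m0015-3p: tctggcTGTGGTGTAgaccgt
m0018-3p: tgtgacTGTGGTGTAcactagc
m0040-3p: tacgtcTGTGGTGTAgaccagt
m0055-3p: tgtgccTGTGGCGTAgaccagc
m0068-3p: tgtggcTGTGGCGTAtgccaa
m0092-3p: tgtgacTGTGGCGTAcgccggca
ssc-miR-4331-3p: tgtggcTGTGGTGTAggccagc
miR-4331-y: tgtggcTGTGGCGTAtgcca
These 8 entries were 1.03% of all 774, and the 6 predicted ones were 6.59% of the 91. None of the 774 entries held the letters on the other strand. The stretch was noticed in the sequences and was not a motif chosen beforehand.

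The predicted miRNAs were rare. Counted once per distinct set of counts, they summed to 14874 of the 98707912 tags listed over the 12 libraries, 0.0151%. The listed tags ran from 7184168 to 10384074 per library, and 1 count was worth 0.0964 to 0.136 counts-per-million (CPM, scaled to library size by the TMM method of edgeR). Of the 76 profiles, 5 averaged 10 CPM or more, 17 lay between 1 and 10 CPM and 54 lay below 1 CPM. In the table, 156 entries had a higher total count than the most abundant of the 91. Every library held a count for 50 to 65 of the 76 profiles. Counts were present in all 12 libraries for 28 profiles, in 11 for 4, in 6 to 10 for 37 and in fewer than 6 for 7. Counts of 0 occurred in at least 1 library for 57 of the 91 names (62.6%), against 18.8% of porcine names and 40.4% of other-species names. In the liver check, 24 entries of hepatocyte miRNAs, miR-122 and miR-148a among them, took 82.6% to 87.2% of the listed tags of a library.

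In length the 77 sequences were mostly those of a miRNA. They spanned 18 to 25 nt, and 63 of them (81.8%) were 21 to 23 nt long, against 89.6% of 299 porcine and 54.4% of 368 other-species sequences. The base at the 5′ end was T in 44 (57.1%), against 47.8% and 42.9%, and the median GC content was 50% against 47.6% in both other classes. The class label entered the choice of the 91, and the sources used here do not say how length and end base entered the prediction. Of the 91 names, 41 carry a 5p and 50 a 3p arm, and no number was listed with both arms. Thus no predicted miRNA came with its partner strand under the same number. In 10 cases the same sequence stood under several names, 24 names in all, with identical counts. The largest of these was the sequence of m0050-3p to m0054-3p, listed 5 times. The sequence of m0021-3p was also listed as m0022-5p, on the opposite arm.

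The 12 most abundant predicted miRNAs held 78.7% of the counts and the top 3 held 43.3%. Highest was m0001-3p, with 22.8 ± 5.74 CPM (SD, n = 3) in Bama livers at normal temperature and 29.6 ± 5.08 under cold, and with 23.6 ± 1.43 and 27.6 ± 4.05 in Hezuo livers. Next came m0003-3p, with 23.4 ± 2.19, 19.2 ± 2.74, 27.01 ± 2.69 and 27.7 ± 9.16 CPM in the same order. Over the 12 livers these differed by 1.91-fold and 2.25-fold from the lowest to the highest.

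The third, m0005-5p, which is listed again as m0006-5p, varied far more between pigs. Its level was 14.9, 2.71 and 8.81 CPM in the Bama normal livers and 8.38, 3.80 and 19.6 CPM in the Bama cold livers. It was 5.01, 8.61 and 33.1 CPM in the Hezuo normal livers and 10.9, 26.2 and 42.8 CPM in the Hezuo cold livers. The lowest and highest livers stood 15.8-fold apart and all groups overlapped. The biological coefficient of variation, the spread between pigs of 1 group beyond counting error, was 72.8% for this entry. Over the 24 tested profiles its median was 28.002%, against 26.9% over 279 other entries of the same abundance range. It ran from 19.9% for m0001-3p to 202.6% for m0018-3p, with 83.2% for m0015-3p.

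**Figure D1:**
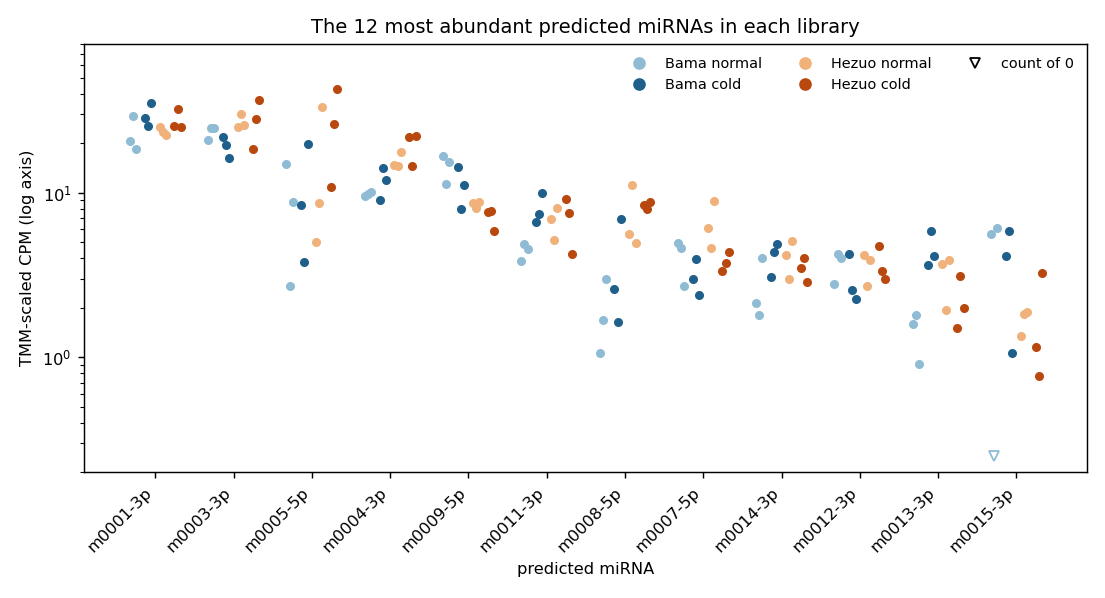
TMM-scaled CPM on a log axis of the 12 predicted miRNAs with the highest mean, in each of the 12 libraries, coloured by breed and temperature; an open triangle marks a count of 0. Most lie within a narrow band across pigs, while m0005-5p spreads 15.8-fold, m0008-5p 10.4-fold and m0013-3p 6.44-fold, and m0015-3p has a count of 0 in 1 Bama normal liver.

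Several of the abundant predicted miRNAs overlap the named entries shown above. Of the 77 sequences, 9 matched an entry of another class with at most 2 mismatches, a shift of at most 3 nt and an overlap of at least 16 nt. The most abundant, m0001-3p, equals all 21 bases of ssc-miR-7134-3p plus 1 further base at the 3′ end. The named entry had 29039 counts against 2554, or 11.4 times as many. Both had their lowest group mean at normal temperature and their highest in Bama cold, where ssc-miR-7134-3p stood at 353.8 ± 36.6 CPM and m0001-3p at 29.6 ± 5.08. Neither was called between temperatures in Bama, with adjusted p = 0.455 for m0001-3p and 0.264 for ssc-miR-7134-3p (edgeR's quasi-likelihood test).

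For m0004-3p and m0003-3p the predicted entry was more abundant than the named one, and for m0016-5p the counts were nearly equal. The entries miR-802-y and miR-459-y, which share 19 bases with m0004-3p, had 24 counts each against 1394. The 18 bases of miR-735-y lie within m0003-3p. It had 13 counts, all of them in Hezuo livers, against 2412 for m0003-3p, of which 1032 were in Bama livers. The entry ssc-miR-10384, which begins 3 bases before m0016-5p, had 174 counts against 171.

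In the other 5 the named entry was more abundant. The letters of m0014-3p begin 3 bases inside miR-140-y, which had 1603 counts against 349. The miR-143-3p of stromal cells, 1823692 counts, contains the first 18 bases of m0029-3p, which had 64. A let-7a with 3 added bases at its 3′ end makes m0081-5p, with 13 counts against 401013 for ssc-let-7a. The remaining ones, m0068-3p and m0076-5p, had 16 and 14 counts against 55 for miR-4331-y and 110 for ssc-miR-7137-5p. How the authors assigned tags that fit both a named and a predicted entry is not given, so the levels of these pairs are uncertain individually.

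A shared seed was found between 9 predicted sequences and an entry of another class, and for 5 of them the class was porcine. Through its seed m0012-3p went with ssc-let-7f-3p, and m0081-5p with 15 entries of the let-7 family, regulators of differentiation and growth. The others with porcine counterparts were m0001-3p, m0004-3p (with ssc-miR-9820-5p) and m0068-3p (with ssc-miR-4331-3p).

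Opposite strands were also looked for, because the arms of a hairpin pair with each other. A run of at least 12 perfectly complementary bases to an entry of another class was present in 4 sequences, 3 of which are shown with the paired run in capitals.
m0012-3p: CTATACAACCTACTgtctttcc
ssc-let-7a: tgaggtAGTAGGTTGTATAGtt
m0076-5p: gGGGAACTCCCAGACCAGCTtc
ssc-miR-7137-3p: AGCTGGTCTGGGAGTTCCCggg
m0077-5p: gtGGGTGCTCGATGCTAGAtg
ssc-miR-9841-3p: TCTAGCATCGAGCACCCgcct
The run is 14 bases long for m0012-3p, 19 for m0076-5p and 17 for m0077-5p. In abundance m0077-5p, with 27 counts, was close to its complement ssc-miR-9841-3p, with 29. Their counts in the breeds stood the other way round: 16 in Bama and 11 in Hezuo livers for m0077-5p, 8 and 21 for ssc-miR-9841-3p. No relation of these kinds, by seed, overlap or complement, was found for 62 of the 77 sequences.

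Tests used edgeR's quasi-likelihood fit to the counts of all 12 libraries, with a call at a Benjamini-Hochberg adjusted p below 0.05 over the 460 entries that passed a filter on low counts. Of the 91 predicted miRNAs, 26 passed the filter (24 profiles). The other 65 averaged at most 0.995 CPM and were not tested. An entry can pass that filter through 1 group alone, so the tested ones are not a sample of the 91.

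Between the breeds, m0017-3p and m0043-5p were higher in Hezuo than in Bama livers at both temperatures. Those were the only predicted miRNAs called by edgeR, 2 of 26 tested at each temperature. Of all 460 entries, 2.61% were called higher at normal temperature and 2.39% under cold. No predicted miRNA was called lower by edgeR, against 1.09% and 1.96%. Both called ones passed the filter through Hezuo livers alone, since Bama counts were 0 for m0017-3p and at most 8 for m0043-5p. Their share among the 26 is therefore not independent of the filter. At an unadjusted p below 0.05, m0009-5p was lower at both temperatures and m0013-3p under cold, and DESeq2 called m0009-5p lower at normal temperature (adjusted p = 0.0404). The comparisons at normal temperature and under cold set different libraries against each other. Both use a spread estimated from all 12 libraries, so they are not independent tests. Differences between whole livers do not tell fewer cells of a type from less RNA per cell.

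The clearest breed difference was that of m0017-3p. Its counts were 23, 25 and 27 in the Hezuo normal livers and 9, 51 and 14 in the Hezuo cold livers. In all 6 Bama livers the count was 0. The levels in Hezuo were 2.95 ± 0.614 CPM (SD, n = 3) at normal temperature and 3.13 ± 3.02 under cold, so under cold the spread between pigs was as large as the mean. Against a floor of 3 counts over the Bama group, the pooled Hezuo level was 22.1-fold higher at normal temperature (edgeR adjusted p = 0.0197). Under cold it was 25.5-fold higher (edgeR adjusted p = 0.0117). Of the 74 counts under cold, 51 came from Hezuo cold pig 2, and without that pig the value is 11.6-fold. Floors cover only the counting error of the zero counts. Counting error of the pooled Hezuo level is left out, with 95% limits of 2.27 to 3.62 CPM at normal temperature and 2.38 to 3.81 under cold. The call at normal temperature was lost without Bama normal pig 1 (adjusted p = 0.0581), Bama normal pig 3 (0.0962) or Hezuo normal pig 3 (0.0608). Under cold it was lost without Bama cold pig 1 (adjusted p = 0.0544).

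Counts in only 1 breed were uncommon in the table: 10 of 774 entries (1.29%) had them, 3 of them predicted. Only m0017-3p and m0018-3p among the 10 had more than 100 counts. Of the 10, m0017-3p alone had a count in every liver of its breed.

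The reverse pattern, counts in Bama livers alone, was that of m0018-3p. It had 2, 0 and 70 counts in the Bama normal livers, 0, 40 and 41 in the Bama cold livers and 0 in all 6 Hezuo livers. In Bama the level was thus high in 3 pigs, near 0 in 1 and at 0 in 2. Set against the floor of 3 counts over the Hezuo group, the pooled Bama level was 27.1-fold higher at normal temperature and 26.1-fold higher under cold. The value at normal temperature rests on Bama normal pig 3, without which 2 counts are left and no value is given, and it is 40.9 without Bama normal pig 2. Under cold it is 44.2 without Bama cold pig 1, 18.6 without Bama cold pig 2 and 18.3 without Bama cold pig 3. The pigs of Bama differed so much among themselves that neither comparison was called (edgeR adjusted p = 0.365 and 0.464).

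A smaller difference was found for m0043-5p. Its level was 0.532, 0.516 and 0.259 CPM in the Bama normal livers and 1.34, 2.13 and 1.74 CPM in the Hezuo normal livers. Under cold it was 0.771, 0.950 and 0.796 CPM in Bama and 3.58, 3.23 and 1.497 CPM in Hezuo. Every Hezuo liver stood above every Bama liver. The log2 difference was 1.97 (SE 0.50, edgeR adjusted p = 0.0455) at normal temperature and 1.71 (SE 0.44, edgeR adjusted p = 0.0432) under cold. Both calls lie close to the threshold. Leaving out 1 library lost the call at normal temperature in 11 of 12 cases (adjusted p up to 0.123, all but Hezuo cold pig 3) and the call under cold in 7 of 12 (up to 0.174 without Hezuo cold pig 1). The 7 were Bama normal pig 1, Bama cold pigs 1 to 3, Hezuo normal pig 3 and Hezuo cold pigs 1 and 2.

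**Figure D2:**
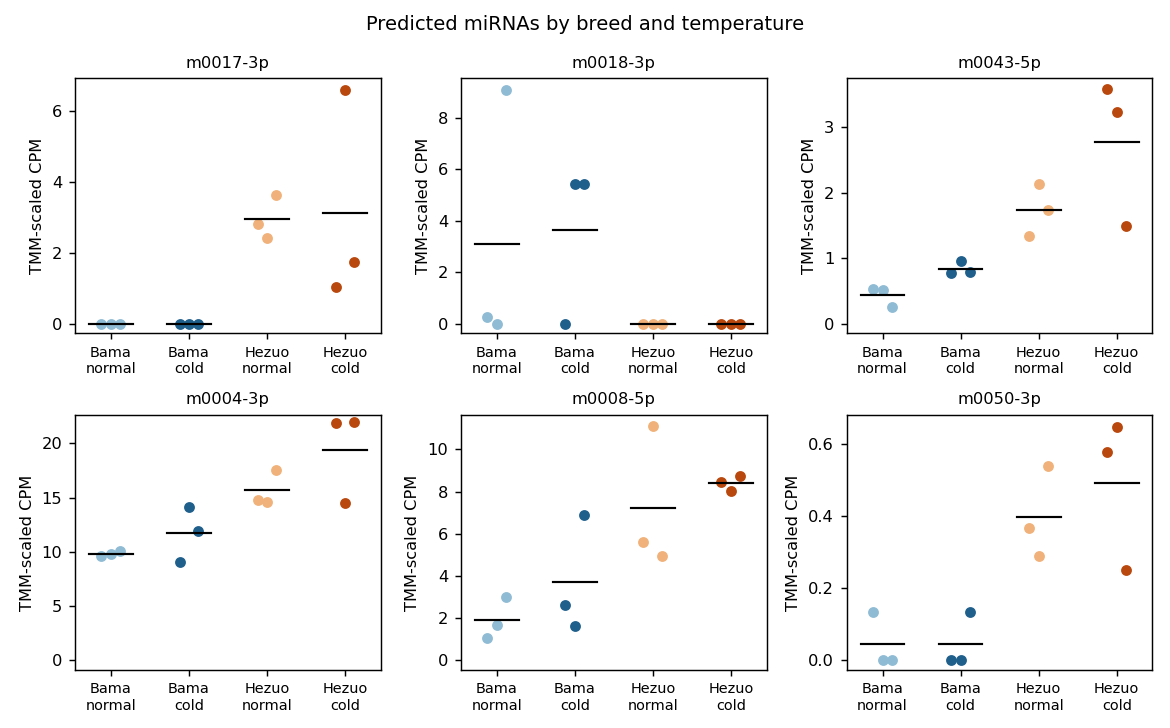
TMM-scaled CPM of 6 predicted miRNAs in each library (points, 3 per group) with group means (lines). All 6 Bama livers are at 0 for m0017-3p and all 6 Hezuo livers are at 0 for m0018-3p, while m0043-5p, m0004-3p and m0050-3p separate the breeds without overlap.

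Without overlap between all 6 Hezuo and all 6 Bama livers, also m0004-3p and the sequence of m0050-3p to m0054-3p were higher in Hezuo, beside m0017-3p and m0043-5p. Counting both directions, Hezuo higher or Bama higher, the breeds lay apart for 21 of the 460 tested entries (4.57%) and for 26 of all 774 (3.36%). These are counts of names, so the 1 sequence of m0050-3p to m0054-3p enters the 26 under each of its 5 names. The predicted miRNAs among the 21 were m0004-3p, m0017-3p and m0043-5p, of which the last 2 passed the filter through Hezuo livers alone. For m0004-3p the Bama livers had 9.58, 9.80 and 10.1 CPM at normal temperature and 9.06, 14.1 and 11.9 CPM under cold. The Hezuo livers had 14.8, 14.6 and 17.6 CPM at normal temperature and 21.8, 14.5 and 21.96 CPM under cold. The groups lay apart, yet the log2 differences of 0.67 (SE 0.22, edgeR adjusted p = 0.0977) and 0.73 (SE 0.22, edgeR adjusted p = 0.0825) were not called. Under cold it passed without Hezuo cold pig 2 (edgeR adjusted p = 0.0497). The counts of m0050-3p were 1, 0 and 0, then 0, 0 and 1, in Bama livers at normal temperature and under cold, and 3, 3 and 4, then 5, 5 and 2, in Hezuo livers. These 2 counts against 22 lay under the filter and were not tested.

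Below the threshold, m0008-5p had 1.06, 1.68 and 2.98 CPM in Bama normal and 5.62, 11.1 and 4.96 CPM in Hezuo normal livers. Under cold it had 2.60, 1.63 and 6.90 CPM in Bama and 8.43, 8.01 and 8.73 CPM in Hezuo livers. The breeds lay apart within each temperature, with log2 differences of 1.92 (SE 0.51, edgeR adjusted p = 0.0550) and 1.19 (SE 0.48, edgeR adjusted p = 0.257). At normal temperature it passed without Bama cold pig 2 (edgeR adjusted p = 0.0466) or Bama cold pig 3 (0.0183), and under cold without Bama cold pig 3 (log2 difference 1.97, edgeR adjusted p = 0.0425). In the other direction, m0009-5p was at 14.5 ± 2.77 CPM in Bama and 8.51 ± 0.334 in Hezuo at normal temperature, and at 11.2 ± 3.17 and 7.08 ± 1.06 under cold. Each Hezuo liver was below each Bama liver of its temperature, with log2 differences of -0.77 (SE 0.25, edgeR adjusted p = 0.0826) and -0.66 (SE 0.25, edgeR adjusted p = 0.203). A p that misses the threshold does not show that the breeds are alike.

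Within a temperature the breeds did not overlap for 9 of the 24 tested profiles at normal temperature, against 22.2% of all 460 entries, and for 6 under cold, against 20.2%. Both counts include m0017-3p and m0043-5p, which passed the filter through Hezuo livers alone, so they are not independent of the filter. The 24 are counted once per profile, while the 460 keep entries with identical counts, so the 2 are not like shares. The median log2 difference over the 24 was 0.19 at normal temperature and 0.06 under cold, against 0.05 and -0.04 over all entries. With m0017-3p and m0018-3p set at their values against the floor these medians stay as they are, since both stand at the ends of the order. The markers of other liver cells were set beside these values. Their summed level reached 18314 to 30173 CPM for stromal, 11262 to 15515 for endothelial, 440.1 to 2449 for erythroid and 596.4 to 1141 for myeloid and lymphoid miRNAs. At normal temperature stromal miRNAs ranged from 22175 to 30173 CPM in Bama and from 18394 to 21285.5 in Hezuo livers, without overlap. Under cold they ranged from 20854 to 28645 CPM in Bama and from 18314 to 23080 in Hezuo livers, with overlap. No tested entry of these 4 lists was called between the breeds. Of the 20 tested entries of the hepatocyte list, edgeR called 3 between the breeds at normal temperature and 2 under cold. The summed TMM-scaled level of that list was 803358 to 835131 CPM in Bama normal and 853565 to 1068520 in Hezuo normal livers. Under cold its ranges overlapped. TMM scaling divides by an adjusted library size, so such a sum can exceed the listed total. The TMM factor was lowest in Hezuo normal pig 3, at 0.816, and next lowest in Hezuo cold pig 2, at 0.952. Without TMM scaling, the list took 82.6% to 87.2% of the listed tags of a library. The part of any of these lists in the breed differences was not tested.

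**Figure D3:**
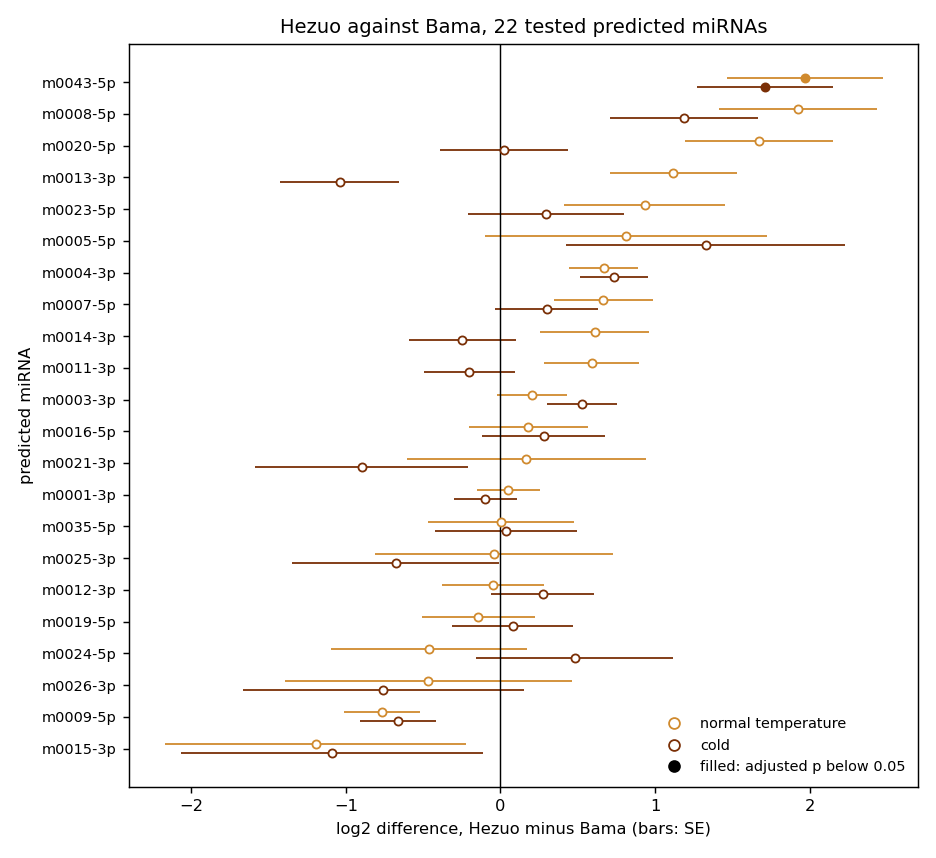
Log2 difference of Hezuo against Bama livers at normal temperature and under cold, with SE, for the 22 tested profiles that have counts in both breeds; filled points have an adjusted p below 0.05. Only m0043-5p is filled, at 1.97 and 1.71, and m0013-3p lies on opposite sides of 0 at the 2 temperatures.

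The entries with the letters TGTGGNGTA, chosen here after their sequences and values were seen, ranged from even to uneven between breeds. Summed counts were 183 in Bama and 86 in Hezuo livers for m0015-3p, 153 and 0 for m0018-3p, 22 and 1 for m0055-3p and 12 and 0 for m0092-3p. They were 22 and 20 for m0040-3p, 8 and 8 for m0068-3p, 18 and 16 for ssc-miR-4331-3p and 26 and 29 for miR-4331-y. So 4 of the 8 had more counts in Bama livers and the other 4 had near equal counts. The pigs differed as well. Counts of m0015-3p were 42, 0 and 47 in the Bama livers at normal temperature and 43, 43 and 8 under cold, and 11, 19 and 14, then 10, 6 and 26, in the Hezuo livers. In Bama normal pig 2 both m0015-3p and m0018-3p had a count of 0, while m0055-3p had 6 there. The 22 Bama counts of m0055-3p were 10, 6 and 3 at normal temperature and 0, 1 and 2 under cold. Among the 6 predicted ones, only m0068-3p matched another entry of the table within 2 mismatches, and that entry was miR-4331-y.

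Cold was followed by no called change of a predicted miRNA within a breed. In Bama livers edgeR called none of 26, against 1.09% of all 460 entries, and DESeq2 called 1. At an unadjusted p below 0.05 there were 3, against 14.6% of all entries. In Hezuo livers edgeR and DESeq2 called none, edgeR against 0.0% of all entries, and 1 had an unadjusted p below 0.05, against 9.35%. Averaged over breeds edgeR and DESeq2 called none either, edgeR against 2.17%, and 3 had an unadjusted p below 0.05, against 17.8%.

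Nearest to a call in Bama was m0013-3p. It had 1.60, 1.80 and 0.907 CPM in Bama normal and 3.66, 5.84 and 4.11 CPM in Bama cold livers. In Hezuo livers it had 3.67, 1.93 and 3.89 CPM at normal temperature and 1.502, 3.10 and 2.00 CPM under cold. Every cold Bama liver was above every normal one, and the Hezuo groups overlapped. The log2 difference was 1.64 (SE 0.40, edgeR adjusted p = 0.0552) in Bama and -0.51 (SE 0.39, edgeR adjusted p = 0.758) in Hezuo. The Bama difference passed with DESeq2 (adjusted p = 0.0145) and without Hezuo normal pig 2 (0.0461). Over all alternatives its adjusted p ran from 0.0145 to 0.299. Seen as a breed difference, m0013-3p was higher in every Hezuo than in every Bama liver at normal temperature and lower in every one under cold. These log2 differences were 1.12 (edgeR adjusted p = 0.138) and -1.04 (edgeR adjusted p = 0.196).

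A like course in Bama was seen for m0020-5p, with 0.665, 0.387 and 0.518 CPM at normal temperature and 1.73, 1.09 and 2.26 CPM under cold. Hezuo livers had 1.71, 2.13 and 1.21 CPM at normal temperature and 1.73, 2.20 and 1.25 CPM under cold. The 3 Bama normal livers were thus below the other 9. The log2 difference of cold against normal was 1.67 (SE 0.48, edgeR adjusted p = 0.100) in Bama and 0.02 in Hezuo, and that of the breeds at normal temperature was 1.67 (SE 0.48, edgeR adjusted p = 0.0550). Both values rest on the Bama normal group.

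The difference between the responses of the breeds was tested as an interaction. No predicted miRNA was called by edgeR, against 0.0% of all 460 entries, or by DESeq2, and 2 had an unadjusted p below 0.05 with edgeR, against 5.43%. The 2 were m0013-3p at -2.16 (SE 0.56, edgeR adjusted p = 0.766) and m0020-5p at -1.65 (SE 0.63, edgeR adjusted p = 0.766) on the log2 scale, Hezuo minus Bama. For m0003-3p and m0024-5p the interaction was positive, at 0.32 (SE 0.32) and 0.94 (SE 0.90), each with an edgeR adjusted p of 0.961.

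**Figure D4:**
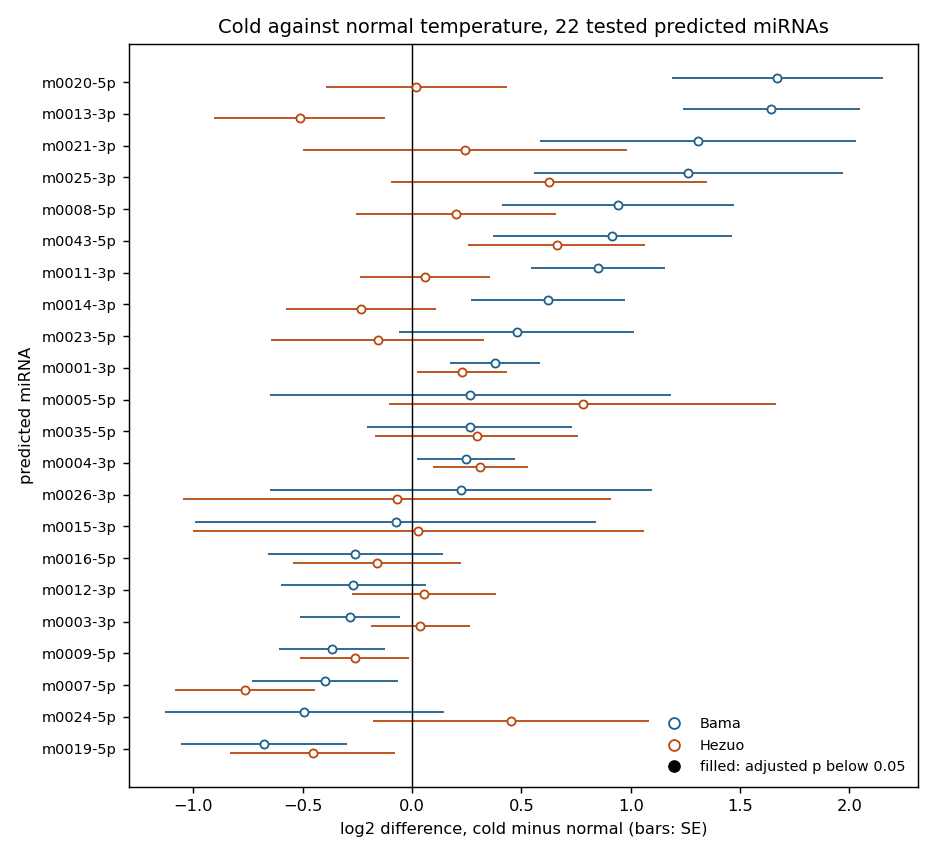
Log2 difference of cold against normal livers in Bama and in Hezuo pigs, with SE, for the 22 tested profiles that have counts in both breeds; a filled point would have an adjusted p below 0.05. No point is filled, and m0020-5p at 1.67 and m0013-3p at 1.64 are the highest in Bama, with 0.02 and -0.51 in Hezuo.

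Further members stood apart between temperatures in 1 breed without passing the test. In Bama, m0011-3p was at 4.43 ± 0.528 CPM at normal temperature and 8.02 ± 1.72 under cold, a log2 difference of 0.85 (SE 0.31, edgeR adjusted p = 0.218). In Hezuo, m0007-5p had 6.11, 4.64 and 8.85 CPM at normal temperature and 3.35, 3.75 and 4.37 CPM under cold, a log2 difference of -0.76 (SE 0.32, edgeR adjusted p = 0.466). In the average over breeds m0007-5p was at -0.58 (SE 0.23, edgeR adjusted p = 0.222), m0019-5p at -0.57 (SE 0.27, adjusted p = 0.272) and m0043-5p at 0.79 (SE 0.34, adjusted p = 0.243). Temperature groups did not overlap for 5 of the 24 tested profiles in Bama, against 16.7% of all 460 entries, and for 3 in Hezuo, against 15.4%. Here too the 24 are counted once per profile, and an entry can pass the filter through 1 group alone. The median log2 difference was 0.26 in Bama and 0.05 in Hezuo, against -0.01 and -0.04 over all entries. Among the marker lists, the summed level of the 11 entries of nervous and endocrine miRNAs was higher under cold without overlap in both breeds. It ran from 410.8 to 560.9 CPM at normal temperature and from 667.6 to 790.8 CPM under cold in Bama, and from 392.1 to 540.2 and from 571.9 to 663.7 CPM in Hezuo livers. Most of that sum is ssc-miR-7-5p, with a mean log2 CPM of 8.70, against 6.34 for the next tested entry, ssc-miR-375. The entries ssc-miR-9, ssc-miR-9-1 and ssc-miR-9-2 had identical means and variation and each enter the sum. Of the 7 tested entries of the list 1 was called by edgeR in the average over breeds. None of the 11 was at 0 in every library. The part of this list in the cold differences and in the summed share was not tested.

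Taken as a sum, the 76 profiles made up a larger share in cold Hezuo livers than in the other groups. In CPM of all listed tags, without TMM scaling, the share was 133.0 ± 7.09 (SD, n = 3) at normal temperature and 146.2 ± 10.1 under cold in Bama livers. In Hezuo livers it was 143.2 ± 6.39 and 182.4 ± 24.6. On that scale the cold Hezuo livers ran from 164.5 to 210.4 and the other 9 from 127.1 to 157.8, without overlap. With the TMM-scaled library sizes used for the single miRNAs, the groups overlapped. The cold Hezuo livers then ran from 151.8 to 191.1, the Hezuo normal livers from 141.4 to 172.4 and the Bama cold livers from 134.6 to 163.1, and the lowest cold Hezuo liver was pig 1. Group means on the TMM scale were 129.6 and 145.2 CPM in Bama and 154.9 and 174.6 CPM in Hezuo livers. Averaged over the other factor, cold minus normal came to 26.3 and Hezuo minus Bama to 23.2 CPM, or to 17.6 and 27.4 CPM on the TMM scale. Because the 91 were chosen as a class, no p is given for their sum. The variable m0005-5p supplied 2.16% to 22.4% of the summed counts of a library. Without it the differences were 18.3 and 12.3, with group means of 123.9 and 135.7 in Bama and 129.7 and 154.5 in Hezuo livers. A share of listed tags also moves with the most abundant miRNAs, miR-122-5p and miR-148a-3p.

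**Figure D5:**
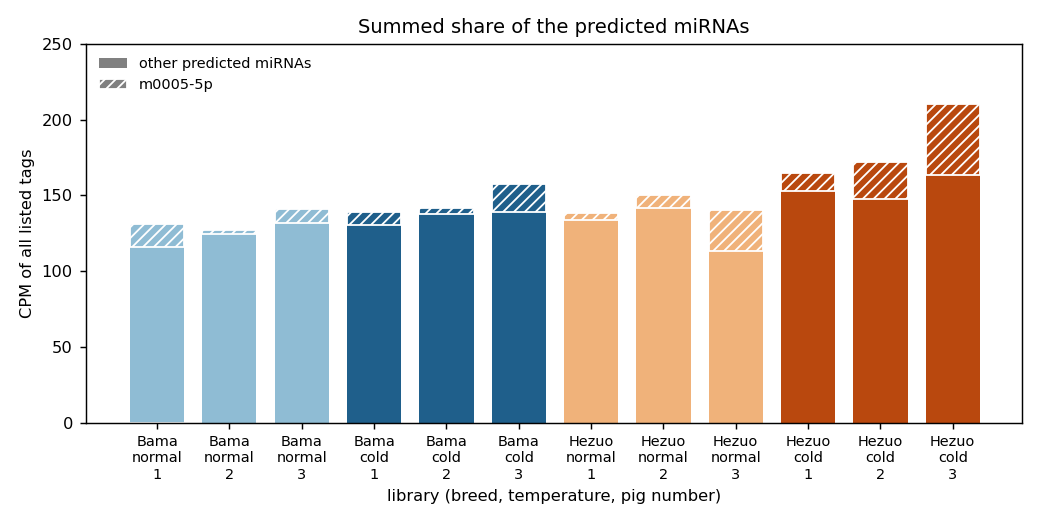
Summed share of the predicted miRNAs in each library, in CPM of all listed tags; the hatched part of each bar is m0005-5p. The 3 Hezuo cold bars, 164.5 to 210.4, are above the other 9 on this scale but overlap them with TMM-scaled library sizes (151.8 to 191.1 against up to 172.4), and the hatched part is widest in Hezuo cold pig 3.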

How the data were processed

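Per the labels' protocols, total RNA was extracted from liver with TRIzol, then a gel cut selected 18 to 30 nt, and the ligated molecules were amplified. Per the file headers, the authors deposited raw tag counts and TPM values per entry and library. The deposited TPM were counts divided by 1 constant per library, with 0.01 for a count of 0, and served only to derive library totals. Not given in the sources used here are aligner, prediction tool, miRNA database and genome build. The file had 2 empty lines, and 0 columns of samples were left unused. No genome was used here, so no positions are given.

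Counts of all 774 entries were fitted with edgeR 4.0.16 (R 4.3.3, limma 3.58.1): TMM scaling, filterByExpr, robust quasi-likelihood F tests of 6 contrasts over 4 groups, Benjamini-Hochberg over 460 entries, a call at an adjusted p below 0.05. Each SE of a log2 difference was derived from the test, as the size of the difference divided by the square root of F. The common biological coefficient of variation was 25.0%. The fit was checked on simulated counts with the same spread between pigs for every entry, and with changes planted only in more abundant entries. That check did not cover the low counts and uneven spread of many predicted miRNAs. DESeq2 1.42.0 was an alternative. Sequences were compared in Python 3.11.15, without gaps. Entries with counts equal in every library were counted as 1 profile in sums.

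Named were the 12 most abundant members, those called, the 2 nearest to a call per contrast and direction, and those related to another entry by seed or sequence. A few more (m0021-3p, m0022-5p, m0040-3p, m0050-3p to m0054-3p, m0055-3p, m0076-5p, m0077-5p and m0092-3p) were chosen after their values or sequences were seen. Members and lists were chosen with earlier results of these data known. Same-numbered libraries of a breed correlated in their deviations from group means at 0.00785 to 0.168, so the numbers were not taken as pairs. Of the marker lists, the biliary and other epithelial (105.5 to 187.6 CPM), muscle (110.2 to 143.8 CPM) and nervous and endocrine (392.1 to 790.8 CPM) miRNAs, like the others, held no entry at 0 in every library.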

Additional observations from a re-analysis of the deposited data

Results flagged for a closer look

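The breed difference of m0013-3p had opposite signs at the 2 temperatures, with every Hezuo liver above every Bama liver at normal temperature and below under cold. The interaction was -2.16 on the log2 scale (SE 0.56, unadjusted p = 0.00181, edgeR adjusted p = 0.766), so the difference was tested and was not called. Over the alternatives its adjusted p ran from 0.326 to 1.0, and it stayed negative in each.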

How the results depend on the processing

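All 28 results of single predicted miRNAs kept their direction under every alternative run, 4 of them passing in the main analysis. They were chosen for a call or for the smallest p in these same data, and the alternatives reuse the same libraries. A kept direction was therefore likely beforehand. The count called between breeds at normal temperature, 2, became 4 with DESeq2, 4 with upper quartile scaling, and 1 with library totals, with no filter or with a mean count of at least 10. Those added were m0008-5p and m0009-5p with DESeq2 (adjusted p = 0.00947 and 0.0404) and m0008-5p and m0020-5p with upper quartile scaling (adjusted p = 0.0357 and 0.0395); m0017-3p stayed and m0043-5p was lost where 1 was left. Under cold it went from 2 to 3 with DESeq2 (m0004-3p, adjusted p = 0.0340) and to 1 with no filter. Cold in Bama went from 0 to 1 with DESeq2. With 1 library left out, the counts ran from 0 to 2 at normal temperature, 0 to 2 under cold and 0 to 1 for cold in Bama. The pig number as a replicate block, which the labels do not establish as a pairing, left 1 at each temperature and changed no other count of calls. The differences of the summed share were 95.8 (cold) and 89.5 CPM (breed) when miR-122-5p and miR-148a-3p were left out of the denominator, which is smaller by construction. With 1 library left out they ran from 19.3 to 30.7 and from 16.2 to 27.7, lowest without Hezuo cold pig 3. Chosen after seeing the data, as was leaving out m0005-5p, counting all 91 names gave 35.1 and 36.7, and TMM-scaled library sizes gave 17.6 and 27.4. The cause of the other shifts was not tested.

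The match to a genome was not run, since none was given, nor was a permutation or block test of the summed share. Depth limits these data: 65 of 91 entries averaged at most 0.995 CPM.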
